A study of Mus musculus with 2 samples.

Results

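The proteasome subunit genes were followed in droplet libraries of single mouse spinal cord cells taken 3 days post injury (3 dpi) and after sham surgery. Members were all gene rows of both count tables with the symbol stem Psm, a letter from a to g and a number, leaving out Psmb8 and Psmb9, which gave 46 of 22480 genes. Cells of the 3 dpi group came from 5 male and 5 female C57BL/6 mice 3 days after injury, and cells of the sham group from another 5 male and 5 female C57BL/6 mice without cord injury, all aged 8 weeks and with no transgene or drug named in the labels. Each group was pooled into 1 library from an 8 mm stretch of cord around the injury site, captured with a droplet 3′ kit that counts unique molecular identifiers (UMIs). The labels do not say how the cord was injured.

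Since either group was a single library, nothing was tested and no p-value is given, and injury, library and dissociation cannot be told apart. The 3 dpi library held 13594 barcodes and 149291783 UMIs (median 9117) and the sham library 10138 barcodes and 76889038 UMIs (median 5522), with 39 barcode sequences in common. After filters and doublet removal, 12108 cells at 3 dpi and 9306 sham cells remained. Clusters were named "X-like" from fixed markers. The 4 classes that reached 50 cells at 3 dpi and in sham held 10 of 10 of their markers at their highest class level (microglia, oligodendrocyte and endothelial) or 9 of 10 (precursor). Levels are UMIs per 1000000 UMIs of the class and library (CPM). One UMI stands for 1 captured molecule whatever its length, so CPM is not scaled by gene length. Whether capture is equal between genes was not tested, so ratios between genes are ratios of UMIs. Intervals in brackets are 95% intervals of counting error only, and leave out the spread between cells, mice and libraries.

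The proteasome degrades proteins that carry chains of ubiquitin. Its 20S core is a stack of rings: alpha subunits (Psma genes) form the outer rings and gate the channel, and beta subunits (Psmb genes) form the inner rings that cut. The 19S cap sits on the core, where ATPases (Psmc genes) unfold the substrate and non-ATPases (most Psmd genes) bind and remove ubiquitin. Microglia and infiltrating phagocytes depend on it to turn over proteins and to make peptides for antigen presentation, for which immune beta subunits and the PA28 activator (Psme1, Psme2) can be swapped in. The 46 members comprised 31 core genes (14 of the 20S core and 17 of the 19S cap), 3 chaperones of 19S assembly, 4 of 20S assembly (Psmg genes), 4 activators (Psme genes), the inhibitor gene Psmf1, the immune beta subunit gene Psmb10, and Psma8 and Psmb11, whose products are found in testis and thymus.

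Promoter sequence is shown for members that carried a match to a site through which proteasome genes are known to be regulated. RefSeq promoter windows (GRCm38.p6, 250 bases before to 50 after the gene start) were found for 38 of the 46 members. The antioxidant response element core TGACNNNGC, to which Nrf1 and Nrf2 (the products of Nfe2l1 and Nfe2l2) bind, was searched on both strands. It lay in 6 of 38 member windows (15.8%), in 17.5% of the windows of 5963 genes measured in these libraries and in 14% of all 27025 windows, so the members held it about as often as other genes. The 6 genes were Psmb5, Psmb6, Psmc6, Psmd9, Psmd12 and Psme4, whose microglial log2 ratios of 3 dpi over sham, given further on, were 1.38, 1.84, 0.60, 0.79, 0.73 and 0.02, so carriers of the match did not share a ratio. Psmb5 and Psmb6, which encode catalytic subunits, are shown. In their stretches the capitals mark this match, which lay 47 and 9 bases before the start.
Psmb5, chr14:54617996-54618082, minus strand: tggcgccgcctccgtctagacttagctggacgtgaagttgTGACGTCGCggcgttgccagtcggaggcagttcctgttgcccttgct
Psmb6, chr11:70525308-70525356, plus strand: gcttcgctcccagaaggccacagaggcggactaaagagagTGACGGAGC
The ETS site CCGGAAGT, searched on both strands, lay in 9 of 38 member windows (23.7%), in 9.89% of the windows of measured genes and in 4.31% of all windows. The 9 genes were Psma6, Psmc1, Psmc2, Psmd6, Psmd12, Psmd13, Psme3, Psme4 and Psmg3. The match, in capitals, is shown for 3 core genes in which it lay just before the start. In Psmc1 and Psmd12 the match is on the opposite strand, so the capitals read as its reverse complement.
Psmc1, chr12:100110133-100110201, plus strand: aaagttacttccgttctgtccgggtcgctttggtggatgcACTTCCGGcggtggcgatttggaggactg
Psmd6, chr14:14120946-14121030, minus strand: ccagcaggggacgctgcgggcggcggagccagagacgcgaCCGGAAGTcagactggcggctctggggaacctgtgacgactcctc
Psmd12, chr11:107479470-107479527, plus strand: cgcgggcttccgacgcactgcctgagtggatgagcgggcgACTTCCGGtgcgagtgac
The CCAAT box, a common promoter element searched as CCAAT on both strands, lay in 13 of 38 member windows (34.2%), in 42.4% of those of measured genes and in 41.1% of all. A match in these windows describes letters only and was not set against binding data.

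The core proteasome genes were expressed in every class, and among classes with at least 50 cells in a library their summed level was lowest in sham microglia-like cells. The 31 core genes together had 6412 CPM [6387 to 6438] in microglia-like cells at 3 dpi and 2973 CPM [2938 to 3009] in sham microglia-like cells, a ratio of 2.16 [2.13 to 2.18]. Oligodendrocyte-like cells, which make myelin, had 7926 CPM [7883 to 7970] at 3 dpi and 5675 CPM [5652 to 5697] in sham. Precursor-like cells, the progenitors of oligodendrocytes, had 8057 CPM [8005 to 8110] at 3 dpi and 6619 CPM [6488 to 6753] in sham. Each class was higher at 3 dpi than in sham, and the microglial ratio was the largest of the 4 compared. In endothelial-like cells, which line the vessels, the core summed to 6650 CPM [6590 to 6711] at 3 dpi and 5581 CPM [5520 to 5642] in sham. The ratios were 1.40 [1.39 to 1.41] in oligodendrocyte-like, 1.22 [1.19 to 1.24] in precursor-like and 1.19 [1.17 to 1.21] in endothelial-like cells. Over all kept cells the core had 6858 CPM at 3 dpi and 5281 CPM in sham (ratio 1.30 [1.29 to 1.30]), a value that also holds the change in which classes make up the library.

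**Figure D1:**
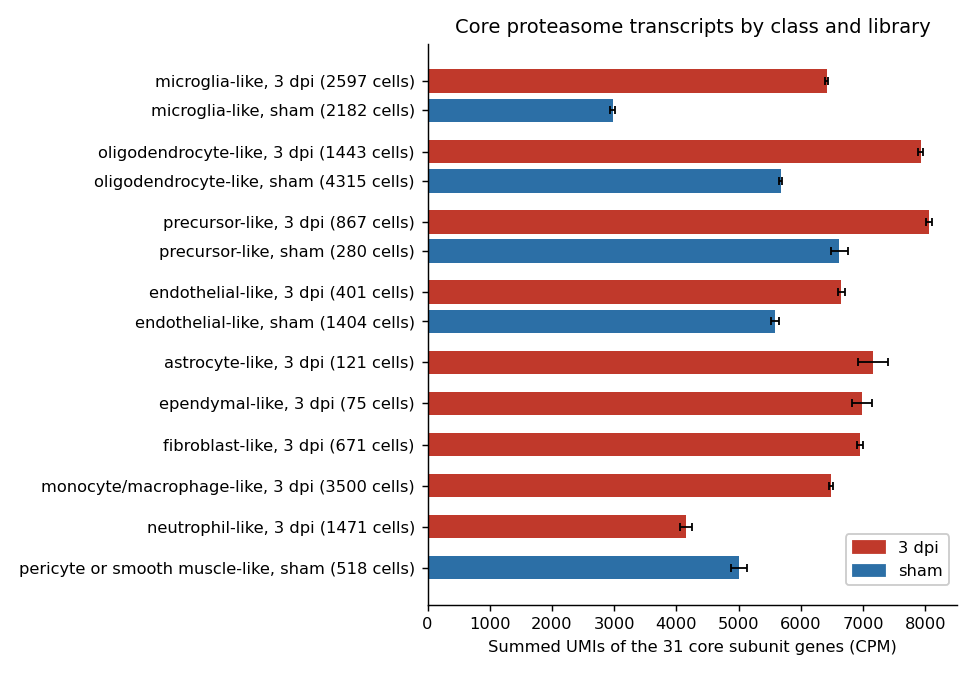
Summed level of the 31 core subunit genes (x axis, CPM) in each class and library with at least 50 cells; bars start at 0, red is 3 dpi, blue is sham, and black lines are 95% counting intervals. Sham microglia-like cells (2973 CPM) have the shortest bar and precursor-like cells at 3 dpi (8057 CPM) the longest.

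Classes found in number in only 1 library fell inside this range. At 3 dpi the core summed to 7159 CPM in astrocyte-like cells (121 cells), 6982 CPM in ependymal-like cells (75 cells) and 6953 CPM in fibroblast-like cells (671 cells). Monocyte/macrophage-like cells, the blood-derived phagocytes, had 6486 CPM [6457 to 6515] in 3500 cells, close to the 6412 CPM of microglia-like cells at 3 dpi. Neutrophil-like cells had 4146 CPM [4051 to 4244] at a median of 1032 UMIs per cell, the lowest of the 3 dpi classes. In sham, pericyte- or smooth muscle-like cells had 5002 CPM (518 cells). Over the 14 pairs of class and library, sham microglia-like cells had the lowest level for 23 of the 31 core genes, neutrophil-like cells for 7 and sham oligodendrocyte-like cells for 1. The highest level lay in oligodendrocyte-like cells at 3 dpi for 10 core genes and in precursor-like cells at 3 dpi for another 10. One unnamed cluster of 344 cells at 3 dpi, which carried oligodendrocyte markers and hemoglobin genes, had 8454 CPM, above every named class.

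The 4 classes also lay higher at 3 dpi than in sham when read cell by cell. Core UMIs made up a median of 61.9 per 10000 UMIs of a microglia-like cell at 3 dpi (quartiles 50.3 and 71.7) and 29.1 in sham (quartiles 22.6 and 35.9). The 10th percentile at 3 dpi, 37.6, lay above the sham upper quartile. In oligodendrocyte-like cells the medians were 76.2 at 3 dpi (quartiles 66.1 and 87.3) and 55.3 in sham (quartiles 47.0 and 63.0), again with quartiles that did not overlap. Precursor-like cells had medians of 77.7 at 3 dpi and 65.2 in sham, and endothelial-like cells 66.6 at 3 dpi and 55.7 in sham, with overlapping quartiles in both classes.

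**Figure D2:**
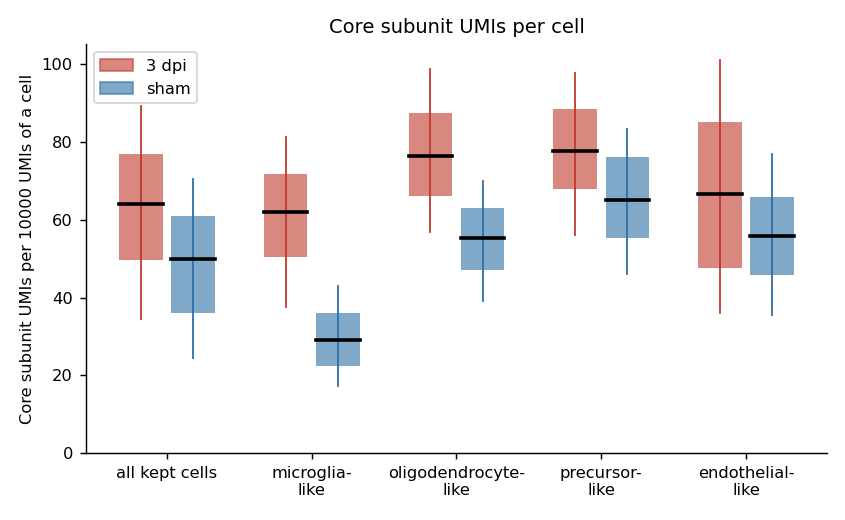
Core subunit UMIs per 10000 UMIs of each cell (y axis) in all kept cells and the 4 compared classes; boxes span the quartiles, black lines are medians, thin lines reach the 10th and 90th percentiles, and red (3 dpi) stands left of blue (sham). The microglial boxes (50.3 to 71.7 at 3 dpi, 22.6 to 35.9 in sham) lie farthest apart.

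Several measures moved with the microglial difference, and their part in it was not tested. Median depth was 13668 UMIs per microglia-like cell at 3 dpi and 3821 in sham. Most of the cells came from different clusters (6, 8 and 11 at 3 dpi, and 1 and 29 in sham). Within cells of 5000 to 15000 UMIs the core log2 ratio was 0.98 (1337 cells at 3 dpi and 463 in sham), against 1.11 in all cells. Depth still differed in this window, with medians of 10776 UMIs at 3 dpi and 6681 in sham. The 6 cell cycle genes (Mki67, Top2a, Birc5, Ube2c, Cdk1, Cenpf) summed to 1020 CPM at 3 dpi and 3.97 CPM in sham, and in cells without a UMI of these genes the core log2 ratio was 1.002 (562 cells at 3 dpi and 2147 in sham). The 3 clusters at 3 dpi had core levels of 5604 CPM (cluster 6), 6940 CPM (cluster 8) and 6537 CPM (the cycling cluster 11), each above the 2958 and 3900 CPM of the sham clusters 1 and 29. A set of 8 early response genes chosen after the data had been seen (Fos, Jun, Junb, Egr1, Atf3, Btg2, Ier2, Zfp36) summed to 3473 CPM at 3 dpi and 33898 CPM in sham microglia-like cells. The 10 monocyte/macrophage markers summed to 4642 CPM at 3 dpi, with all 10 detected, and 370 CPM in sham, where 9 of 10 were detected and Arg1 was at 0; they reached 30912 CPM in monocyte/macrophage-like cells. The 10 microglia markers summed to 13215 CPM at 3 dpi and 30957 CPM in sham. The 10 oligodendrocyte markers were also lower at 3 dpi in these cells, with 436 CPM against 2666 CPM in sham.

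Across all kept cells, 44 of the 46 members were measured, meaning 20 CPM or more in at least 1 library. A call, higher or lower, needed a 1.5-fold ratio after 10 CPM had been added to both libraries, and is a rule of size. Of the 44, 9 were called higher at 3 dpi (20.5%), while 17.9% of all 7513 measured genes were, so this count is near the background. Median-of-ratios scaling, which scales 3 dpi levels up by 0.18 on the log2 scale, called 16 of the 44 higher. That scaling shifts all genes alike, and the share of all genes called under it is not given here. In CPM, none of the 44 was called lower, while 33.8% of all measured genes were. The median log2 ratio of the members was 0.27 and that of all measured genes -0.24, and 27 of 31 core genes lay above 0.

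In the alpha ring the log2 ratio over all kept cells was 0.95 for Psma1, 0.74 for Psma4, 0.51 for Psma3, 0.42 for Psma5, 0.39 for Psma7, 0.30 for Psma2 and 0.18 for Psma6. Psma1 had 193 CPM at 3 dpi and 95.2 CPM in sham, and Psma4 269 CPM at 3 dpi and 157 CPM in sham. In the beta ring it was 0.64 for Psmb5, 0.50 for Psmb3, 0.48 for Psmb6, 0.32 for Psmb4, 0.19 for Psmb1, 0.15 for Psmb2 and -0.09 for Psmb7. The catalytic genes of the beta ring thus stood apart from each other: Psmb5, the chymotrypsin-like subunit, had 361 CPM at 3 dpi and 229 CPM in sham, and Psmb7, the trypsin-like subunit, 148 CPM at 3 dpi and 158 CPM in sham. Among the ATPases it was 0.37 for Psmc4, 0.25 for Psmc6, 0.13 for Psmc1, 0.09 for Psmc5, -0.03 for Psmc3 and -0.08 for Psmc2. Among the non-ATPases it was 0.98 for Psmd8, 0.73 for Psmd1, 0.60 for Psmd12, 0.49 for Psmd14, 0.45 for Psmd2, 0.37 for Psmd11, 0.24 for Psmd6, 0.22 for Psmd13, 0.22 for Psmd7, 0.05 for Psmd4 and -0.05 for Psmd3. Psmd8, a lid subunit, had 343 CPM at 3 dpi and 169 CPM in sham, and Psmd1, a scaffold of the base, 168 CPM at 3 dpi and 97.1 CPM in sham. The 9 called members were Psmd8, Psma1, Psma4, Psmd1, Psmb5, Psmd12 and the activator genes Psme1, Psme2 and Psme3. These calls also hold the change in which classes make up the library. Psme1 had a log2 ratio of 0.97 over all kept cells. By class it had 0.93 in oligodendrocyte-like, 0.18 in microglia-like, -0.04 in precursor-like and -0.72 in endothelial-like cells.

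**Figure D3:**
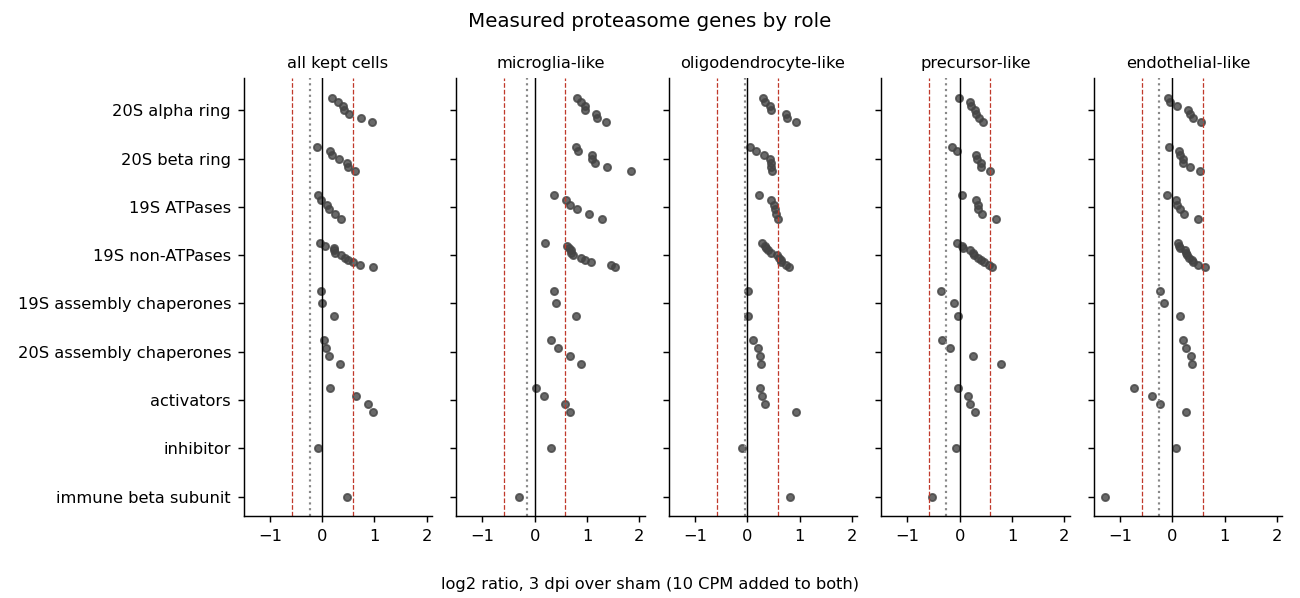
Log2 ratio of 3 dpi over sham (x axis, 10 CPM added to both) for each measured member, by role (rows) in all kept cells and the 4 compared classes (panels); dashed red lines mark 1.5-fold, the dotted line is the median of all measured genes and the solid line is 0. In microglia-like cells all 31 core genes lie right of 0, and in endothelial-like cells the immune beta subunit lies farthest left at -1.29.

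In microglia-like cells the difference ran through nearly the whole complex. Of 44 measured members, 33 were called higher at 3 dpi (75%), against 21.3% of all 6200 measured genes, and none was called lower, against 30.8% of all. At a 2-fold ratio 13 members were called higher, all of them core genes, against 11.7% of all genes. The median log2 ratio was 0.80 for the members and -0.15 for all measured genes, and all 31 core genes lay above 0 (range 0.20 to 1.84).

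Psmb6, the caspase-like catalytic subunit, differed most: 537 CPM [530 to 545] at 3 dpi and 142 CPM [135 to 150] in sham, a log2 ratio of 1.84. Psmd8 followed with 390 CPM [384 to 397] at 3 dpi and 128 CPM [121 to 136] in sham (1.53), and Psmd1 with 158 CPM [154 to 162] at 3 dpi and 51.1 CPM [46.5 to 55.9] in sham (1.46). At the sham level Psmb6 was not the most abundant core gene, since Psmb1 had 172 CPM there, but at 3 dpi it was. Psmb5 had 326 CPM at 3 dpi and 119 CPM in sham, and Psma7 of the alpha ring 394 CPM at 3 dpi and 147 CPM in sham. Both rings of the 20S core were called higher in full, 7 of 7 alpha and 7 of 7 beta genes, with median log2 ratios of 0.96 and 1.10. The cap was called higher for 5 of 6 ATPases (median 0.74) and 10 of 11 non-ATPases (median 0.73). The exceptions were Psmc2, with 129 CPM at 3 dpi and 97.2 CPM in sham, and Psmd3, with 73.2 CPM at 3 dpi and 62.6 CPM in sham.

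**Figure D4:**
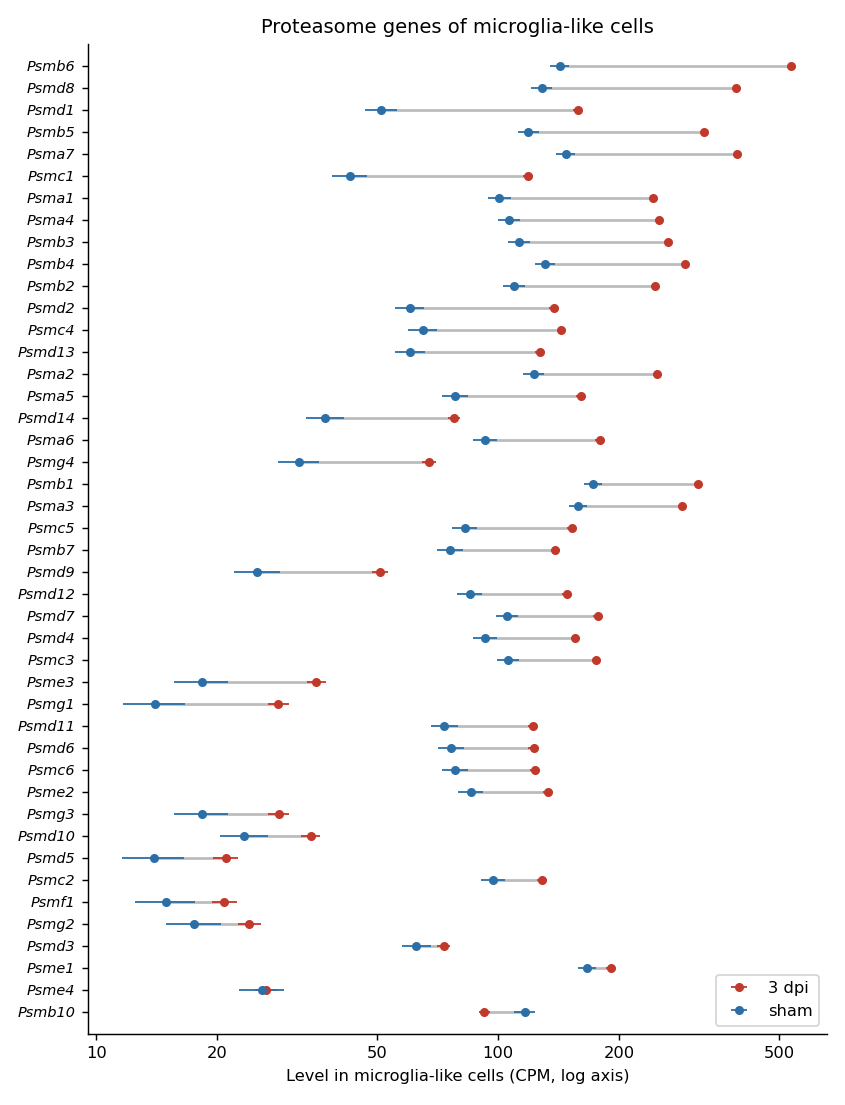
Level of each measured member in microglia-like cells (x axis, CPM, log axis), ordered by log2 ratio; red is 3 dpi, blue is sham, and horizontal lines through the points are 95% counting intervals. The red point lies right of the blue one for 43 of 44 members; Psmb10, at the foot, has 92.5 CPM at 3 dpi and 116 CPM in sham.

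With 10 CPM added, the helpers of assembly mostly had smaller ratios in these cells. Of the 20S chaperone genes, Psmg4 (67.3 CPM at 3 dpi and 32.0 CPM in sham) and Psmg1 (28.4 CPM at 3 dpi and 14.01 CPM in sham) were called higher, while Psmg3 (28.5 CPM at 3 dpi and 18.3 CPM in sham) and Psmg2 (24.1 CPM at 3 dpi and 17.5 CPM in sham) were not. Of the 19S chaperone genes, Psmd9 was called higher (50.8 CPM at 3 dpi and 25.1 CPM in sham), and Psmd10 (34.2 CPM at 3 dpi and 23.4 CPM in sham) and Psmd5 (21.0 CPM at 3 dpi and 13.9 CPM in sham) were not. The inhibitor gene Psmf1 had 20.8 CPM at 3 dpi and 14.9 CPM in sham. These genes thus shared the direction of the core at lower levels and mostly with smaller ratios. The 10 CPM added shrinks ratios more at such low levels, so the smaller ratios come in part from the rule. With 1 CPM added, 35 members instead of 33 were called higher in microglia-like cells.

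The immune beta subunit and activator genes had smaller ratios than most of the core in microglia-like cells. Psmb10, which takes the place of Psmb7 in the immune form of the core, had 92.5 CPM [89.4 to 95.7] at 3 dpi and 116 CPM [109 to 124] in sham (log2 ratio -0.30), the only measured member below 0. In cells of 5000 to 15000 UMIs, nearer in depth, it had 104.4 CPM at 3 dpi and 104.0 CPM in sham, so the difference was not seen there. By cluster, Psmb10 had 116.9 CPM in cluster 6, 85.2 CPM in cluster 8 and 81.3 CPM in cluster 11 at 3 dpi. Sham clusters 1 and 29 had 116.1 CPM and 184.5 CPM. Cluster 6 thus did not lie under sham cluster 1, and the class values here mix unlike clusters. The PA28 genes are ring subunits that open the core without ATP. Psme1 had 191 CPM [186 to 195] at 3 dpi and 167 CPM [158 to 175] in sham (0.18), and Psme2 133 CPM at 3 dpi and 85.5 CPM in sham (0.58, just under the 1.5-fold line, and 0.56 to 0.70 over 13 alternatives, on either side of it). Psme2 has a near-identical copy, Psme2b, with 253 UMIs at 3 dpi and 403 in sham over all kept cells (Psme2 itself had 13822 UMIs at 3 dpi and 3721 in sham), so its reads may be split. Psme3, the nuclear form of PA28, was called higher (35.3 CPM at 3 dpi and 18.3 CPM in sham), and Psme4, the PA200 activator, had 26.4 CPM at 3 dpi and 25.8 CPM in sham. There were thus 0.67 Psmb10 UMIs [0.64 to 0.70] per Psmb7 UMI in microglia-like cells at 3 dpi and 1.53 [1.39 to 1.69] in sham. The immune beta subunit genes left out by the member rule lay in opposite directions in these cells, and neither was called. Psmb8 had 275 CPM at 3 dpi and 232 CPM in sham, and Psmb9 48.2 CPM at 3 dpi and 67.1 CPM in sham.

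The balance of core to cap transcripts also differed. In microglia-like cells there were 1.53 UMIs of 20S genes [1.52 to 1.54] per UMI of 19S genes at 3 dpi and 1.28 [1.25 to 1.31] in sham. Oligodendrocyte-like cells went the other way, with 1.28 [1.26 to 1.29] at 3 dpi and 1.36 [1.35 to 1.37] in sham. In precursor-like cells the ratio was 1.33 [1.32 to 1.35] at 3 dpi and 1.35 [1.30 to 1.41] in sham, and in endothelial-like cells 1.40 [1.38 to 1.43] at 3 dpi and 1.43 [1.40 to 1.46] in sham, so in both classes the intervals overlapped. The blood-derived classes had the highest ratios, 1.60 [1.58 to 1.61] in monocyte/macrophage-like and 1.84 [1.75 to 1.93] in neutrophil-like cells at 3 dpi.

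In oligodendrocyte-like cells 11 of 43 measured members were called higher at 3 dpi (25.6%), against 9.81% of all 6247 measured genes, and none lower, against 12.3%. The median log2 ratio was 0.44 for the members and -0.04 for all genes, and all 31 core genes lay above 0. Psma5 of the alpha ring led with 288 CPM [280 to 297] at 3 dpi and 146 CPM [142 to 150] in sham (log2 ratio 0.94). Psme1 had 29.7 CPM [27.1 to 32.4] at 3 dpi and 10.8 CPM [9.82 to 11.8] in sham (0.93), and Psmb10 36.4 CPM [33.5 to 39.4] at 3 dpi and 16.4 CPM [15.2 to 17.7] in sham (0.81). Both were called higher from the lowest sham levels of the 4 compared classes. Psmb6, the leading gene of microglia-like cells, had 414 CPM at 3 dpi and 367 CPM in sham here (0.17), and no beta ring gene was called, against 3 of 7 alpha ring genes, 1 of 6 ATPases and 5 of 11 non-ATPases. The lowest ratios were those of Psmf1 (20.04 CPM at 3 dpi and 22.3 CPM in sham), Psmd10 (39.4 CPM at 3 dpi and 39.1 CPM in sham) and Psmd9 (61.7 CPM at 3 dpi and 60.5 CPM in sham). The 10 monocyte/macrophage markers summed to 409 CPM at 3 dpi, with all 10 detected, and 14.2 CPM in sham, where Ly6c2 and Plac8 were at 0. With 5% of the UMIs subtracted as free RNA of the library, the log2 ratio was 0.92 for Psme1 and 0.85 for Psmb10. Clusters 12 and 13 held most of this class at 3 dpi, and clusters 2, 5, 9, 14 and 24 most of it in sham. Their core levels were 7539 to 8160 CPM at 3 dpi and 4421 to 6260 CPM in sham.

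In precursor-like cells 4 of 44 measured members were called higher at 3 dpi (9.09%), under the 13% of all 8124 measured genes, and none lower, against 31%. Their median log2 ratio was 0.26, against -0.26 for all genes. Median-of-ratios scaling, which here scales 3 dpi levels up by 0.20 on the log2 scale, called 11 members higher. The share of all genes called under that scaling is not given here. The 20S chaperone gene Psmg4 led with 104 CPM [98.2 to 110] at 3 dpi and 55.7 CPM [44.2 to 69.2] in sham (log2 ratio 0.80). Psmc1, an ATPase, had 174 CPM at 3 dpi and 104 CPM in sham (0.69), and Psmd1 186 CPM at 3 dpi and 117 CPM in sham (0.63). The fourth called member was Psmb3 (320 CPM at 3 dpi and 210 CPM in sham). Psmb10 lay lowest, with 56.6 CPM [52.3 to 61.2] at 3 dpi and 86.6 CPM [72.1 to 103] in sham (-0.54), followed by Psmd10 (32.3 CPM at 3 dpi and 44.0 CPM in sham) and Psmg2 (51.4 CPM at 3 dpi and 67.3 CPM in sham). The 6 cycle genes summed to 2385 CPM at 3 dpi and 341 CPM in sham, and in cells without their UMIs (183 at 3 dpi and 261 in sham) the core log2 ratio was 0.18, against 0.28 in all cells, and no member was called higher. Cluster 7 held most of this class at 3 dpi (854 of 867 cells) and cluster 22 most of it in sham (258 of 280 cells). The other 22 sham cells lay in cluster 7. In sham cluster 22 alone the cycle genes summed to 59.9 CPM. Median depth was 11557 UMIs at 3 dpi and 5154 in sham. The 10 precursor markers summed to 3319 CPM at 3 dpi and 11339 CPM in sham, the 8 early response genes to 4101 CPM at 3 dpi and 15503 CPM in sham, and the 10 monocyte/macrophage markers to 458 CPM at 3 dpi, with all 10 detected, and 8.25 CPM in sham, with 3 detected. The 10 oligodendrocyte markers summed to 500 CPM at 3 dpi and 2006 CPM in sham. The part of these measures in the differences was not tested.

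In endothelial-like cells the members split. Of 44 measured, 1 was called higher at 3 dpi (2.27%), under the 15% of all 7033 measured genes, and 2 were called lower (4.55%), against 30.7%. With median-of-ratios scaling, which here scales 3 dpi levels up by 0.22 on the log2 scale, 7 were called higher and 1, Psmb10, lower. The share of all genes called under that scaling is not given here. The core lay slightly higher, with 27 of 31 genes above 0 and a median member log2 ratio of 0.20, against -0.26 for all genes. Psmd8 was the called gene, with 303 CPM [290 to 316] at 3 dpi and 193 CPM [182 to 205] in sham (log2 ratio 0.62), and Psma4 (261 CPM at 3 dpi and 176 CPM in sham) and Psmb2 (286 CPM at 3 dpi and 196 CPM in sham) came next. Psmb10 had 66.7 CPM [60.9 to 73.0] at 3 dpi and 177 CPM [166 to 188] in sham (-1.29). Psme1 had 151 CPM [142 to 161] at 3 dpi and 256 CPM [243 to 270] in sham (-0.72), and Psme2 105 CPM at 3 dpi and 139 CPM in sham (-0.38). Sham endothelial-like cells thus held the highest Psmb10 and Psme1 levels of any class and library with at least 50 cells. Here 0.47 Psmb10 UMIs [0.42 to 0.52] were counted per Psmb7 UMI at 3 dpi and 1.18 [1.08 to 1.29] in sham. Psmb8 and Psmb9, the other immune beta subunit genes, which the member rule leaves out, lay in the same direction, at 97.9 CPM and 37.3 CPM at 3 dpi and 215 CPM and 92.6 CPM in sham. The 10 endothelial markers also summed to less at 3 dpi, 7937 CPM against 24070 CPM in sham, and ribosomal protein genes to more, 24.4% of UMIs against 10.1% in sham. Median depth was 13446 UMIs at 3 dpi and 3220 in sham, the cycle genes summed to 824 CPM at 3 dpi and 28.3 CPM in sham, and the early response genes to 5805 CPM at 3 dpi and 14650 CPM in sham. The 10 monocyte/macrophage markers summed to 1533 CPM at 3 dpi, with all 10 detected, and 757 CPM in sham, where Ccr2, Plac8, Chil3 and Arg1 were at 0. The 10 oligodendrocyte markers summed to 568 CPM at 3 dpi and 3306 CPM in sham. The part of these measures in the Psmb10 and Psme1 differences was not tested. In cells of 5000 to 15000 UMIs the log2 ratios of Psmb10 and Psme1 were -0.97 and -0.64. Median depth there was 8632 UMIs at 3 dpi and 6677 in sham. Cluster 19 held most of this class at 3 dpi and cluster 4 most of it in sham.

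**Figure D5:**
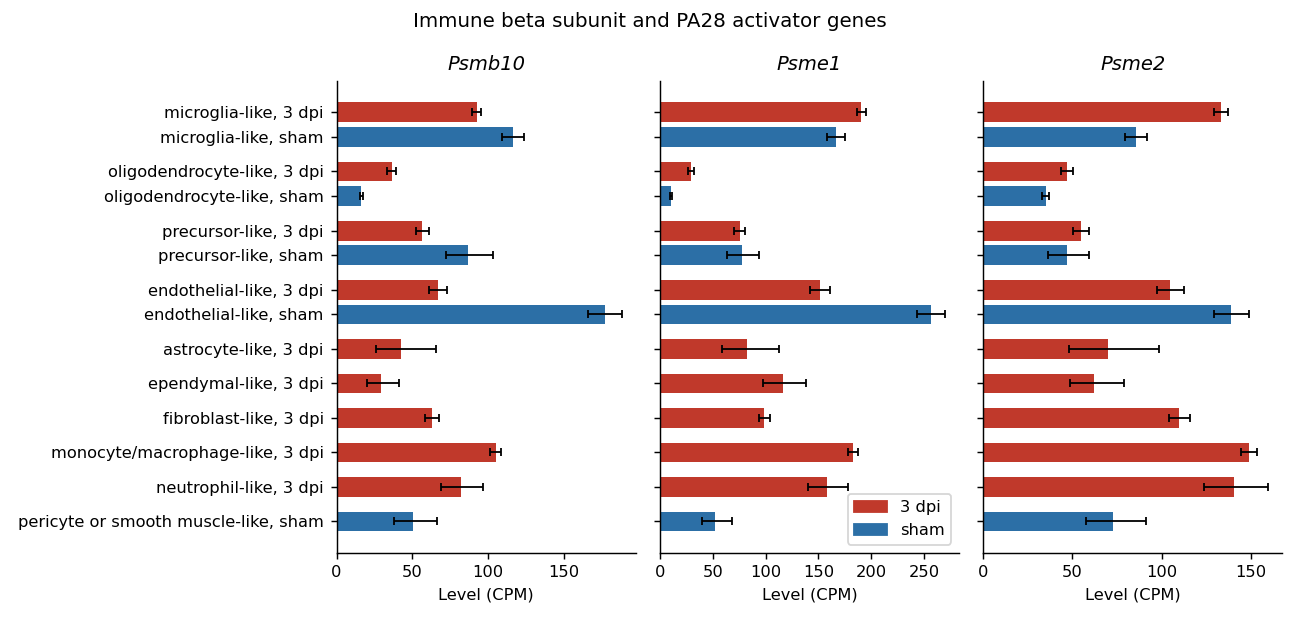
Level of Psmb10, Psme1 and Psme2 (x axes, CPM, from 0) in each class and library with at least 50 cells; red is 3 dpi, blue is sham, and black lines are 95% counting intervals. Psmb10 and Psme1 are lower at 3 dpi than in sham in endothelial-like cells (66.7 and 177 CPM for Psmb10) and higher at 3 dpi in oligodendrocyte-like cells (36.4 and 16.4 CPM).

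At 3 dpi the core sum ran between 4146 CPM in neutrophil-like and 8057 CPM in precursor-like cells. The immune and activator genes spread more widely between classes than this sum, but a sum evens out single genes. Psmd1, a core gene, ran from 29.7 CPM in neutrophil-like to 191 CPM in monocyte/macrophage-like cells. At 3 dpi Psmb10 had 29.3 CPM [20.2 to 41.2] in ependymal-like, 36.4 CPM in oligodendrocyte-like, 42.4 CPM [25.9 to 65.5] in astrocyte-like and 56.6 CPM in precursor-like cells. It had 63.1 CPM in fibroblast-like, 66.7 CPM in endothelial-like, 82.0 CPM [69.0 to 96.7] in neutrophil-like, 92.5 CPM in microglia-like and 105 CPM [101 to 109] in monocyte/macrophage-like cells. The intervals of ependymal-like, oligodendrocyte-like and astrocyte-like cells overlapped, as did those of fibroblast-like and endothelial-like cells. Psme1 was highest at 3 dpi in microglia-like (191 CPM) and monocyte/macrophage-like cells (183 CPM) and lowest in oligodendrocyte-like cells (29.7 CPM). Psme2 had 149 CPM in monocyte/macrophage-like, 141 CPM in neutrophil-like and 47.0 CPM in oligodendrocyte-like cells at 3 dpi. Among the named classes, the phagocyte classes thus held the top levels of all 3 genes at 3 dpi. Oligodendrocyte-like cells were lowest or among the lowest. An unnamed cluster of 180 cells at 3 dpi lay above every named class for all 3 genes. It had 134 CPM of Psmb10, 445 CPM of Psme1 and 258 CPM of Psme2. Its leading genes included Igkc, Cd79a and Gzma, which are expressed in lymphocytes. The monocyte/macrophage-like values mix unlike clusters, and 6 of 10 markers of this class were highest in it. Cluster 0, with 2235 of the 3500 cells, had 90.3 CPM of Psmb10, 149 CPM of Psme1 and 136 CPM of Psme2. Its Psmb10 level lay inside the counting interval of microglia-like cells [89.4 to 95.7]. It lay above microglial clusters 8 (85.2 CPM) and 11 (81.3 CPM) and under cluster 6 (116.9 CPM). The Psme1 level of cluster 0 lay under that of microglia-like cells. It lay inside the Psme1 intervals of neutrophil-like [140 to 178] and endothelial-like cells [142 to 161]. Cluster 10 (790 cells) had 148 CPM of Psmb10 and 257 CPM of Psme1. Cluster 18 (401 cells), led by MHC class II genes such as H2-Aa and H2-Ab1, had 184 CPM of Psmb10, 407 CPM of Psme1 and 249 CPM of Psme2. Psme4 was lowest in neutrophil-like cells (16.3 CPM [10.8 to 23.5]) and highest in fibroblast-like cells (47.8 CPM [44.1 to 51.8]) at 3 dpi, where Psme3 was also highest (46.6 CPM [42.9 to 50.6]). Both Psme4 ranks had overlapping intervals. At the low end astrocyte-like cells had 21.2 CPM [10.2 to 39.0], and at the high end ependymal-like cells had 45.3 CPM [33.8 to 59.6].

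Over all kept cells the remaining members had the following levels. Psmb10 had 79.0 CPM at 3 dpi and 53.8 CPM in sham, Psme1 141 CPM at 3 dpi and 67.1 CPM in sham, and Psme2 113 CPM at 3 dpi and 56.8 CPM in sham. Psme3 had 35.2 CPM at 3 dpi and 18.7 CPM in sham, and Psme4 30.7 CPM at 3 dpi and 26.5 CPM in sham. Psmb10 was higher in the 3 dpi library as a whole although it was lower at 3 dpi in precursor-like and endothelial-like cells, and in microglia-like cells outside the depth window given above; the 2 libraries also differ in which classes they hold. Psmg4 had 74.1 CPM at 3 dpi and 56.5 CPM in sham, and the other 3 Psmg genes had 29.1 to 32.8 CPM at 3 dpi and 27.9 to 29.1 CPM in sham. Psmd9 (53.9 CPM at 3 dpi and 54.4 CPM in sham), Psmd10 (35.6 CPM at 3 dpi and 36.5 CPM in sham) and Psmd5 (23.1 CPM at 3 dpi and 18.2 CPM in sham) differed little, as did Psmf1 (20.5 CPM at 3 dpi and 22.1 CPM in sham). Psma8 had 1.61 CPM at 3 dpi and 1.10 CPM in sham and was never measured in a class; its highest class levels were 4.81 CPM at 3 dpi and 5.55 CPM in sham, both in endothelial-like cells. Psmb11, the thymus subunit gene, had 2 UMIs at 3 dpi and 3 in sham.

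Genes that work with the proteasome were read from a list of 31, of which 30 were in the tables. In microglia-like cells 6 of 26 measured ones were called higher, near the 21.3% of all measured genes, and 4 lower, against 30.8% of all, with a median log2 ratio of 0.14. Sem1, a small lid subunit, had 619 CPM at 3 dpi and 175 CPM in sham, and the deubiquitinase genes Uchl5 and Usp14, whose products dock on the cap, had 65.5 CPM and 74.0 CPM at 3 dpi and 23.1 CPM and 34.5 CPM in sham. Uba1, the main ubiquitin-activating enzyme, had 87.6 CPM at 3 dpi and 50.7 CPM in sham, and Vcp, an unfoldase that delivers substrates, 282 CPM at 3 dpi and 175 CPM in sham. Of the other factors that bind the particle, Adrm1 had 79.3 CPM at 3 dpi and 53.4 CPM in sham, Ecpas 38.0 CPM at 3 dpi and 38.7 CPM in sham, and Ube3c 12.7 CPM at 3 dpi and 21.4 CPM in sham. Zfand5, another of these factors, which binds ubiquitin (199 CPM at 3 dpi and 619 CPM in sham), Akirin2, an adaptor for nuclear import of proteasomes (56.6 CPM at 3 dpi and 152 CPM in sham), and the shuttle gene Ubqln2 (13.02 CPM at 3 dpi and 26.6 CPM in sham) were among those called lower.

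Over all kept cells 7 of 28 measured list genes were called higher (among them Rps27a, Sem1, Uchl5, Usp14, Nfe2l2 and Psmb8) and 3 lower (among them Ubqln2 and Nfe2l3), with a median of 0.00; of all measured genes 17.9% were called higher and 33.8% lower. Log2 ratios were 1.35 for Psmb8, 1.17 for Sem1, 0.97 for Rps27a, 0.75 for Usp14, 0.69 for Nfe2l2 and 0.63 for Uchl5. They were -1.54 for Nfe2l3 and -1.06 for Ubqln2. These values also hold the change in which classes make up the library. Nfe2l3 had -0.12 in oligodendrocyte-like cells, the only compared class where it was measured. Psmb8 had 0.24 in microglia-like, 0.80 in precursor-like and -1.06 in endothelial-like cells. Nfe2l2 had -0.16 in microglia-like, 0.57 in oligodendrocyte-like, 1.45 in precursor-like and -0.09 in endothelial-like cells. In oligodendrocyte-like cells, where 26 were measured, Rps27a (0.71) was among those called higher and Ubqln2 (-0.70) was called lower, against 9.81% of all measured genes called higher and 12.3% lower. In precursor-like cells 5 of 27 were called higher, against 13% of all measured genes, and 4 lower, against 31%. Nfe2l2, which encodes Nrf2, had 39.8 CPM at 3 dpi and 8.25 CPM in sham there, and the log2 ratios of Rps27a, Psmb8 and Usp14 were 1.18, 0.80 and 0.63, against -0.86 for Ubqln2, -0.72 for Ngly1 and -0.69 for Uba6. In endothelial-like cells, where 27 were measured, Rps27a (1.202) was among those called higher, against 15% of all measured genes. The 6 called lower, against 30.7% of all, included Psmb9 (-1.12), Ngly1 (-1.08), Psmb8 (-1.06), Ubqln2 (-0.77) and Nfe2l1 (-0.70). Nfe2l1 encodes Nrf1, which raises proteasome genes when the particle is blocked, and the enzyme from Ngly1 activates it; Nfe2l1 had 94.7 CPM at 3 dpi and 160 CPM in sham endothelial-like cells, Ngly1 16.4 CPM at 3 dpi and 45.9 CPM in sham. Rps27a encodes ubiquitin fused to a ribosomal protein. Ribosomal protein genes made up 17.8% of UMIs at 3 dpi and 14.3% in sham in microglia-like cells, and 18.2% at 3 dpi and 6.97% in sham in precursor-like cells.

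Over the clusters with at least 50 cells of a library, the core level tended to be higher in deeper clusters. Pearson's r between core CPM and the log10 median UMIs was 0.52 over 19 clusters at 3 dpi and 0.64 over 12 clusters in sham, where all points share their library. Between core CPM and the log10 summed level of the cycle genes it was 0.08 at 3 dpi and 0.14 in sham. These values describe clusters and are not a test.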

How the data were processed

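Gene expression was measured in 2 single-cell libraries, 3 dpi and sham, as gene by barcode tables of raw UMI counts (whole numbers in every cell of the tables) deposited by the authors. The libraries were made with a 10X Chromium 3′ v.3 kit, per the labels' protocols. Seurat and Cell Ranger, with no version, and the human build GRCh38 appear in the submitters' processing notes, although the gene symbols are mouse symbols. Filters on cells before deposit are not given in the sources used here. Both tables held 0 mitochondrial genes.

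Cells with at least 500 UMIs and 200 genes were kept (13584 at 3 dpi and 10126 in sham). Doublets were scored against 2 simulated doublets per cell, and the expected number was removed (1476 at 3 dpi, 10.9%, and 820 in sham, 8.10%); the score limit caught 73.5% and 66.3% of simulated doublets. Both libraries were clustered together (2000 variable genes, 30 principal components, 15 neighbours, Leiden resolution 1.0) into 33 clusters, of which 6 stayed unnamed, without batch integration. Classes come from rebuilt clusters. For each class in each library, UMIs were added up and given as CPM with exact Poisson intervals, and ratios with exact conditional intervals (95%). Depth, as summed UMIs, was 36953071 at 3 dpi and 9067393 in sham for microglia-like, 16214195 and 42766986 for oligodendrocyte-like, 11232232 and 1455156 for precursor-like, and 7071890 and 5769570 for endothelial-like cells. Log2 ratios are 3 dpi over sham with 10 CPM added, and a gene needed 20 CPM in at least 1 library. The comparison was tested on simulated data. Scripts ran in Python 3.11.15 with leidenalg 0.10.2 on igraph 0.11.9 for clusters, scikit-learn 1.9.0 for components and neighbours, scipy 1.17.1 for intervals, pandas 2.3.3 and numpy 2.4.6 for tables, and matplotlib 3.10.9 for figures.

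The members, gene lists and settings were chosen with earlier results of these data known. Named with values were all core genes over all kept cells, every other member, the 3 measured members with the highest and the 3 with the lowest log2 ratio in each compared class, and each called pathway gene other than some that are not reported here; Psmc2, Psmd3, Psma7 and Psmb5 in microglia-like cells, and Psmb3 in precursor-like and Psmb6 in oligodendrocyte-like cells, were added after their values were seen. Of the pathway list, Ecpas was read under its older symbol and Paaf1 was not used here. Promoter entries were not used here for Psmc3, Psmg2, Psmb7, Psmd3, Psmd7, Psma8, Psmb1 and Psmb2. Motifs were chosen with results known.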

Additional observations from a re-analysis of the deposited data

Results flagged for a closer look

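Psmb10 and Psme1 moved in opposite directions in oligodendrocyte-like and endothelial-like cells. The log2 ratio of Psmb10 was 0.81 in oligodendrocyte-like cells and -1.29 in endothelial-like cells, and that of Psme1 was 0.93 in oligodendrocyte-like cells and -0.72 in endothelial-like cells. With 1 library per group the difference between the classes was not tested. Over the alternatives tried, Psmb10 ran from 0.75 to 1.10 in oligodendrocyte-like and from -1.40 to -0.97 in endothelial-like cells. Psme1 ran from 0.84 to 1.38 in oligodendrocyte-like and from -0.77 to -0.49 in endothelial-like cells.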

How the results depend on the processing

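No paired analysis was possible because each group was 1 library, and leaving out a replicate was not possible for the same reason. None of 53 alternative values of the core log2 ratio changed sign. The counts of called members have no sign to reverse. In endothelial-like cells their balance did change: 1 higher and 2 lower in the main setting, but 7 and 1 with median-of-ratios scaling. Without ribosomal genes in the total it was 9 and 1. Of 53 core ratios, 22 stayed within their counting interval and 31 moved, and of the counts of members called higher and lower 50 and 57 of 63 stayed within 1.5 times.

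Median-of-ratios scaling, which shifted log2 levels at 3 dpi by 0.18, 0.03, 0.04, 0.20 and 0.22, gave core log2 ratios of 0.56 in all kept cells, 1.14 in microglia-like, 0.52 in oligodendrocyte-like, 0.49 in precursor-like and 0.47 in endothelial-like cells; members called higher were 16 in all kept, 11 in precursor-like and 7 in endothelial-like cells, and lower 1 in endothelial-like cells. Without ribosomal genes in the total these were 0.53, 1.17, 0.55, 0.47 and 0.50, with 15, 11 and 9 called higher and 1 lower. The share of all measured genes called is not given for the alternative settings, so their counts of called members have no background beside them. In cells of 5000 to 15000 UMIs the core ratio was 0.33 in all kept, 0.98 in microglia-like and 0.24 in precursor-like cells, where 2 members were called higher and 1 lower, and 2 were called higher in endothelial-like cells. In cells without cycle gene UMIs, a setting chosen after seeing the data, it was 0.34, 1.002, 0.46, 0.18 and 0.37, with 0 members called higher in precursor-like and 4 in endothelial-like cells. With doublets kept it was 0.37 in all kept, 0.46 in oligodendrocyte-like and 0.28 in endothelial-like cells, with 1 member called higher in precursor-like cells. With each cell weighted equally it was 0.37 in all kept, 1.03 in microglia-like and 0.29 in endothelial-like cells, where 0 members were called higher. Without the 20 most abundant genes of each library in the total, also chosen after seeing the data, it was 1.16 in microglia-like, 0.44 in oligodendrocyte-like and 0.24 in precursor-like cells, where 1 member was called lower. With free RNA subtracted it was 1.17 in microglia-like cells, and 1 member was called lower in precursor-like cells, as with 1 CPM added. With coarser clusters, finer clusters and the unnamed hemoglobin cluster added (chosen after seeing the data), the oligodendrocyte-like ratio was 0.49 each time, and coarser clusters left 1 member called higher in precursor-like cells. The cause of these moves was not tested. The smallest class and library compared, sham precursor-like cells, held 280 cells, which limits single genes there most.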
